A study of Mus musculus with 12 samples.

Results

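Collagen genes were taken as every symbol of the gene table made of Col, a number, the letter a and a number, which gave 44 of 27457 genes. Their UMI counts (unique molecules counted by single-cell RNA sequencing) were summed over the 27 cell clusters of MC38 tumors and over 48 tumors, 24 given an isotype antibody (2A3) and 24 given anti-PD-1 (aPD1, clone 29F.1A12). MC38 is a colon carcinoma line from the C57BL/6 background, and it was grown under the skin of female mice aged 8 to 12 weeks. The hosts were C57BL/6J (B6) mice and first-generation crosses of B6 with CC001/UncJ, CC002/UncJ, CC075/UncJ, CC036/UncJ, CC079/TauUncJ, CC080/TauUncJ or CC007/UncJ, inbred lines of the Collaborative Cross. Every host received 200 µg of a single antibody when its tumor measured 75 to 110 mm3, and the tumor was taken 48 h later. The study's text, not its sample labels, classes CC001, CC002 and CC075 crosses as responders and CC036, CC079 and CC080 crosses as non-responders to aPD1. CC007 crosses and B6 carry no class here.

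Collagens are secreted proteins of 3 chains wound into a triple helix. Fibrillar collagens such as types I, III and V form the tensile fibrils of connective tissue, type IV forms the sheet of basement membranes around vessels, and type VI forms beaded microfilaments around cells. In tumors the bulk of fibrillar collagen is classically made by fibroblasts, whereas vessel-wall cells and endothelium lay down type IV. The helix needs chains built from repeats of glycine and 2 other residues, so that their coding sequence holds long runs of Gly-X-Y triplets.

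In the longest coding transcript of GENCODE vM21 (GRCm38), all 44 collagen genes held an unbroken run of at least 20 such triplets, from 23 in Col26a1 to 344 in Col3a1, against 20 other genes of 21502 protein-coding genes read. The first 10 triplets of the longest run are shown for 6 chains that the results below turn on, with the glycine codon that opens each triplet in capitals (a glycine codon elsewhere in a triplet is in lower case):
Col1a1: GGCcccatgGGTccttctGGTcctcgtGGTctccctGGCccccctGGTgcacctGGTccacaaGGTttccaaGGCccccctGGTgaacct
Col3a1: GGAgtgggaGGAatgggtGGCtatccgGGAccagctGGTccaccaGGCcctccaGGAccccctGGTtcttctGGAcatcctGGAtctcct
Col4a1: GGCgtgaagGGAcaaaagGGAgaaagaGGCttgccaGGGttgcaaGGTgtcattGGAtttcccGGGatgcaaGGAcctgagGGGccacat
Col6a1: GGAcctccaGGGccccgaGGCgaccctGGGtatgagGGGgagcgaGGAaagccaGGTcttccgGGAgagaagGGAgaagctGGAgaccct
Col8a1: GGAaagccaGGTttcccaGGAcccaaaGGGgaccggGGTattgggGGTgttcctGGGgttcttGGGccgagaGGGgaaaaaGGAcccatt
Col14a1: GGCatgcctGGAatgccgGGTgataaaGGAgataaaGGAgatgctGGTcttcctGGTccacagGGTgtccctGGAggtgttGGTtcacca
The runs of the fibrillar chains Col1a1 and Col3a1 held 338 and 344 triplets and began at codons 168 and 164. Those of Col6a1 and Col8a1 held 87 and 61 triplets. The run of Col14a1, a chain that binds to fibrils rather than forming them, held 32 triplets in 1798 codons, and glycine made up 10.8% of its codons against 26.8% in Col1a1. These genes lie at chr11:94936224-94953042 (Col1a1, plus strand), chr1:45311538-45349706 (Col3a1, plus), chr8:11198423-11312826 (Col4a1, minus), chr10:76708792-76726168 (Col6a1, minus), chr16:57624258-57754737 (Col8a1, minus) and chr15:55307750-55520803 (Col14a1, plus).

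The table held 93126 cells, with 53 to 3082 cells per tumor (median 1913.5) and 3333.5 UMIs per cell at the median. Tumors were digested with collagenase and sorted to 90% CD45+ and 10% CD45- cells, so the share of non-immune cells was set by the sort, and fewer cells of a type cannot be told apart from less RNA per cell in sums over all cells. Cluster 22 held 582 cells (0 to 43 per tumor, at least 10 in 24 tumors), cluster 20 held 3411 (at least 10 in 43 tumors) and cluster 25 held 249 (at least 10 in 4 tumors). The clusters carry numbers only in the deposited data, though the study's text names some of them, with clusters 2, 5 and 26 as macrophages. The markers did not give each of clusters 20, 22 and 25 a single cell type. In cluster 22, 5 of 8 fibroblast, 6 of 6 mural and 4 of 5 endothelial markers reached 100 CPM, that is 100 UMIs in 1000000 of the cluster's summed UMIs. Cluster 20 reached it with 1 fibroblast marker, Dcn (501 CPM), and with 0 of 6 MC38 or epithelial markers, of which Shisal2b came nearest at 97.8 CPM against at most 6.56 in any other cluster. Shisal2b is the gene by which the study marks MC38 cells. Cluster 25 reached it with 5 of 5 B cell markers and with Krt8, Krt18, Krt19 and Epcam. The other 24 clusters, 88884 cells, are called immune clusters below.

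Collagen UMIs made up 145626 of 414182018 UMIs, or 0.0352%. All 44 genes had a UMI, but 18 had fewer than 100 in all. The 582 cells of cluster 22 held 43.1% of the collagen UMIs, and the 3411 of cluster 20, 3.66% of the cells, held 46.7%. The 24 immune clusters held 95.4% of the cells and 9.97% of the collagen UMIs. Summed over the 44 genes, the collagen level was 20113 CPM in cluster 22, 2511 in cluster 20, 338 in cluster 25 and 37.9 in the immune clusters together, where single clusters lay between 7.67 and 88.4. Cluster 25 keeps that place only in the sum over its cells, since the median over its 4 tumors with at least 10 cells was 17.7 CPM. Per tumor the sum ran from 8657 over a median of 17243 to 36647 CPM in cluster 22 (n = 24) and from 0 over 1605 to 4876 in cluster 20 (n = 43), so that every tumor of cluster 22 lay above every tumor of cluster 20. These are 5' counts, 1 per molecule, and were not divided by gene length. The clusters were built by the authors from genes that include these, so levels between clusters are a description and were not tested.

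**Figure D1:**
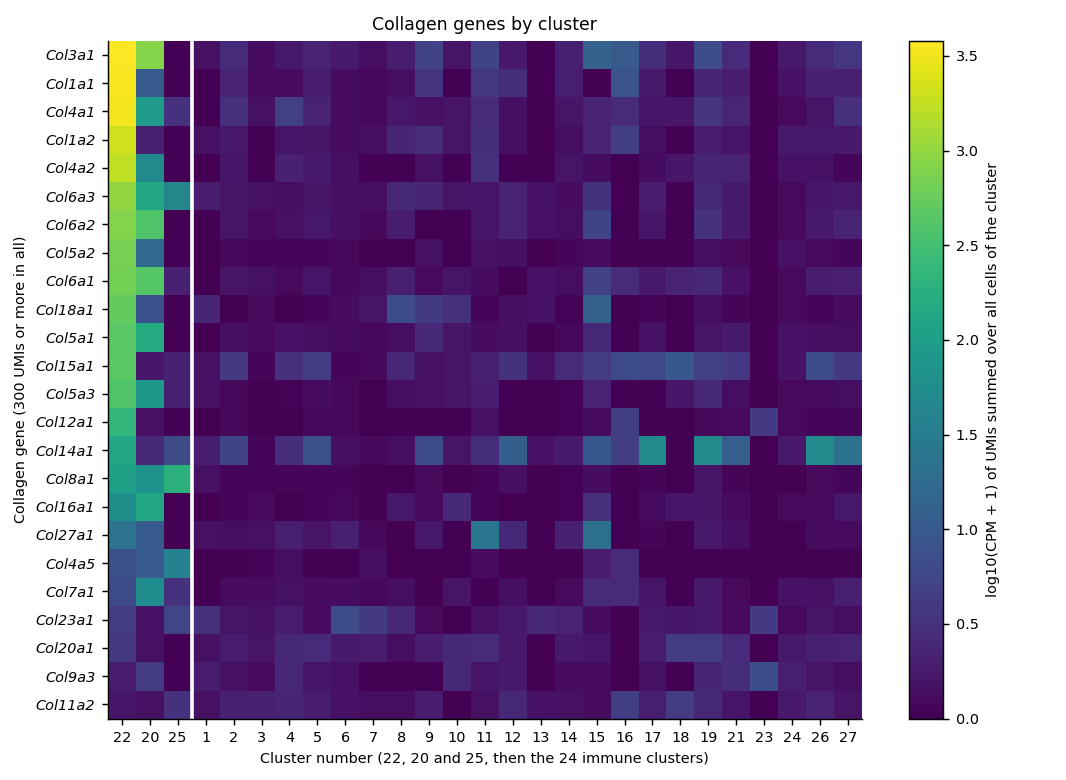
Level of the 24 collagen genes with at least 300 UMIs in all (y axis) in each of the 27 clusters (x axis, clusters 22, 20 and 25 first, then the 24 immune clusters), as log10(CPM + 1) of the UMIs summed over a cluster's cells. Cluster 22 is bright over the upper 15 genes, cluster 20 for Col3a1 and the type VI chains, and the immune side is dark but for Col14a1 in clusters 17, 19, 26 and 27 and Col27a1 in clusters 11 and 15.

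By CPM, 27 of the 44 genes were highest in cluster 22, 2 in cluster 20, 4 in cluster 25 and 11 in an immune cluster. At least 10 CPM was reached by 20 genes in cluster 22, 13 in cluster 20, 4 in cluster 25 and 5 in any immune cluster. A collagen UMI was seen in 99.3% of the cells of cluster 22 (98.9% after each cell was thinned to 1000 UMIs, which left out 22 shallower cells of the 582), in 56.8% of cluster 20 (52.0% thinned) and in 21.7% of cluster 25 (12.8% thinned). Thinning kept 2804 of the 3411 cells of cluster 20 and 195 of the 249 of cluster 25, so their thinned shares describe the deeper cells. In the immune clusters the thinned share ran from 0.613% to 8.51%.

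The fibrillar chains led cluster 22, with 55.0% of its collagen UMIs, and its 5 most abundant collagen genes held 71.8%. Col3a1, the single chain of type III collagen, stood at 3806 CPM in cluster 22, and per tumor at 660, 2552 and 10657 (lowest, median, highest; n = 24). Col1a1 and Col1a2, the chains of type I collagen, stood at 3567 and 2091 CPM. Per tumor Col1a1 ran from 993 over 3116 to 10226, and Col1a2 from 652 over 1789 to 5948. All 24 tumors thus carried each of these chains, over a range of about an order of magnitude. Col5a2 and Col5a1, type V chains that set fibril width, stood at 707 and 467 CPM, with tumor medians of 638 and 474. The ratio of Col1a1 to Col1a2 UMIs was 1.71 and stayed between 1.19 and 2.59 in the 24 tumors, whereas that of Col1a1 to Col3a1 ranged from 0.387 to 2.5.

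The basement membrane chains made up 24.8% of the collagen UMIs of cluster 22. Col4a1 and Col4a2, which assemble together in basement membranes everywhere, start 21 bases apart on opposite strands of chromosome 8 in RefSeq (GRCm38). Col4a1 stood at 3269 CPM (tumors 1213, 3199 and 6224) and Col4a2 at 1701 (443, 1742 and 2658). Their ratio was 1.92 in cluster 22 and 1.92 in cluster 20, where both were far lower. The other type IV chains were sparse there, with 35 UMIs of Col4a3, Col4a4 and Col4a5 together and none of Col4a6. The type VI chains Col6a3, Col6a2 and Col6a1 stood at 967, 829 and 681 CPM, with tumor medians of 992, 750 and 568. The multiplexins Col18a1 and Col15a1, vessel basement membrane proteins, stood at 523 and 459 CPM (tumor medians 420 and 405).

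Cluster 22 mixed cells of unlike collagen content. With at least 2 UMIs of a marker set taken as its sign, 154 cells (26.5%) carried endothelial markers, 294 (50.5%) mural markers, 18 both and 116 (19.9%) neither. The cut is soft, since 55 cells had 1 or 2 endothelial and 31 had 1 or 2 mural UMIs. The cells with neither set stood at 40201 CPM of collagen, led by Col3a1 (14599), Col1a1 (10635) and Col1a2 (7084), and at 2908 CPM of Dcn and 852 of Lum, proteoglycans of fibroblasts. The mural-marker cells stood at 21970 CPM, led by Col4a1 (3836) and Col1a1 (3683), and had more Col6a3 (1530 CPM) than the cells with neither set (785). The endothelial-marker cells stood at 7660 CPM, of which Col4a1 (3367) and Col4a2 (1982) were the main part. There Col1a1 was at 167, Col3a1 at 436 and Col6a1 at 25.4 CPM. Of these 3 sets, Col15a1 was highest in the endothelial-marker cells (671 CPM) and Col18a1 in the mural-marker cells (627), and both were lowest in the cells with neither set (112 and 90.3). Col14a1 followed the cells with neither set, at 705 CPM against 37.6 and 42.3 in the other sets. The sets were drawn by genes of the same cells and were not tested against each other.

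**Figure D2:**
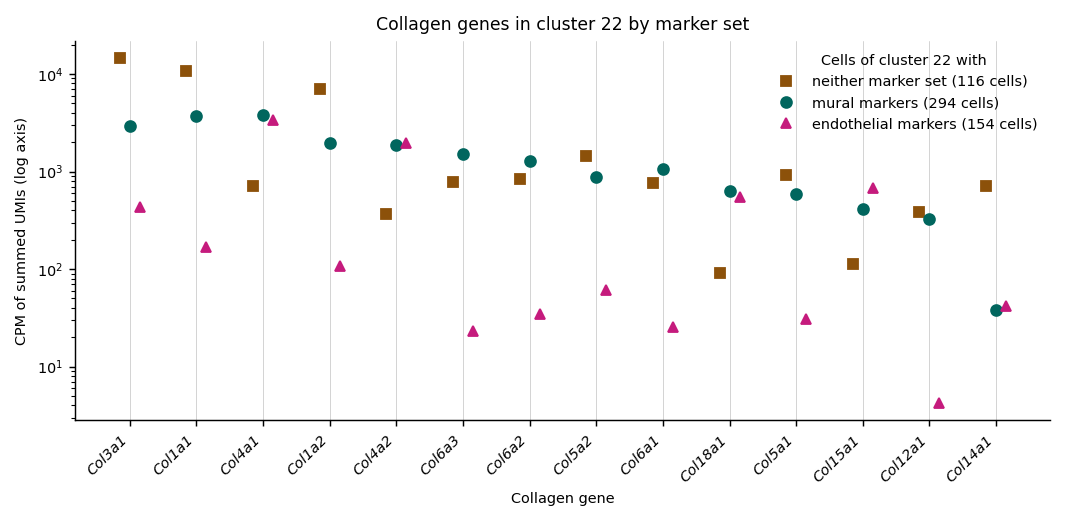
CPM (log axis) of 14 collagen genes (x axis) in 3 sets of cluster 22 cells, those with endothelial markers (154 cells), with mural markers (294) and with neither (116). Types I, III and V and Col14a1 are highest in the cells with neither set, Col4a1 and Col4a2 are alike in endothelial-marker and mural-marker cells, and Col6a1, Col6a2 and Col6a3 are lowest in the endothelial-marker cells.

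Cluster 20 had its own collagen set. Its 3 leading genes, Col3a1 (854 CPM; 23142 UMIs), Col6a1 (434) and Col6a2 (389), held 66.8% of its collagen UMIs, followed by Col5a1 (157) and Col6a3 (136). Type I was almost missing from it. Col1a2 had 29 UMIs in 3411 cells (1.07 CPM, against 2091 in cluster 22), and Col1a1 had 258 (9.52 CPM). The ratio of Col1a1 to Col3a1 was 0.0111 in cluster 20 and 0.937 in cluster 22. In the 23 tumors with at least 10 cells of both clusters, Col1a1, Col1a2, Col4a1 and Col4a2 were higher in cluster 22 in 23 of 23, Col3a1 and Col6a2 in 22 and Col6a1 in 21. The fold of cluster 22 over cluster 20 ran from 1.57 for Col6a1 and 2.13 for Col6a2 over 4.46 for Col3a1 and 34.8 for Col4a1 to 375 for Col1a1 and 1953 for Col1a2. The type VI chains also differed in proportion, with 0.313 UMIs of Col6a3 per UMI of Col6a1 in cluster 20 and 1.42 in cluster 22. Col16a1, a fibril-associated chain, and Col7a1, which forms the anchoring fibrils under epithelia, were picked out after their values were seen as the genes highest in cluster 20, at 134 and 53.4 CPM against 59.9 and 5.77 in cluster 22. In the same 23 tumors cluster 22 was the higher for Col16a1 in 7 and for Col7a1 in 1.

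**Figure D3:**
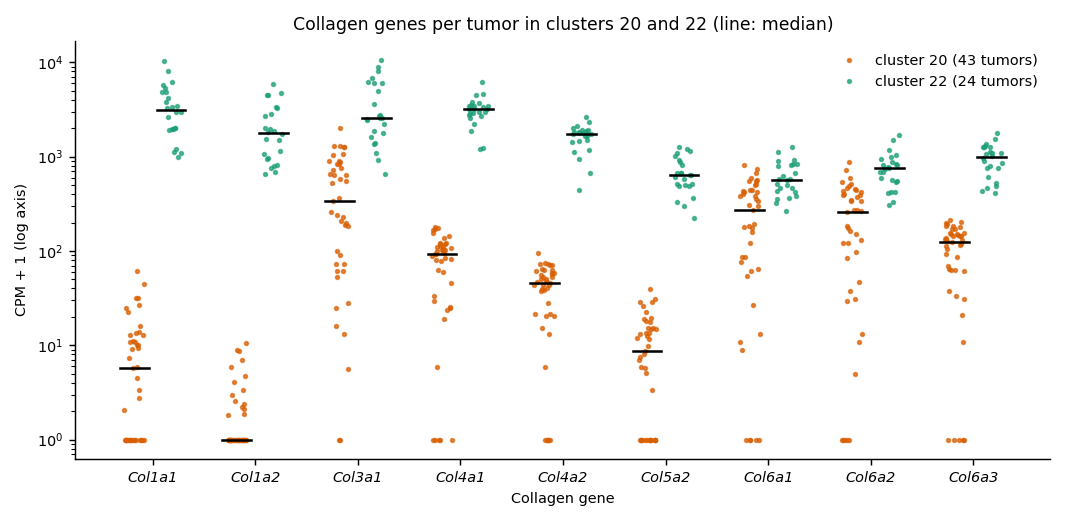
CPM + 1 per tumor (log axis) of 9 collagen genes in cluster 20 (orange, 43 tumors with at least 10 of its cells) and cluster 22 (green, 24 tumors), with the median as a line. The clusters do not overlap for Col1a1, Col1a2, Col4a1, Col4a2, Col5a2 or Col6a3, whereas they overlap for Col3a1, Col6a1 and Col6a2.

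Cells of cluster 20 with a UMI of Ptprc (CD45, the marker of blood cells) numbered 1096, or 32.1%, with a collagen UMI in 17.2% of them and 1538.5 UMIs per cell at the median. The 2315 cells without one had a collagen UMI in 75.6% and 6401 UMIs per cell, and stood at 2709 CPM of collagen against 1120. Among host strains the summed collagen level of cluster 20 had its lowest medians in CC075 crosses (49.7, 147 and 1059 CPM; n = 6) and CC036 crosses (80.9, 615 and 2251; n = 6) and its highest in CC001 crosses (1055, 2403 and 4415; n = 7). The tumors of CC075 crosses overlapped those of CC001 crosses only at 1055 to 1059 CPM. Ptprc moved with these levels, at 461, 1316 and 1974 CPM in cluster 20 of CC075 crosses and 122, 681 and 966 of CC036 crosses, against 5.03, 7.95 and 22.5 of CC001 crosses. The order also runs in part with the libraries. All tumors of CC075 and CC036 crosses were in pools 8 to 11, and cluster 20 was low in other hosts there too, at 478 and 901 CPM in B6 of pool 8 against 1864, 2703 and 4876 in B6 of pools 6 and 7, and at 674 in the CC080 isotype tumor of pool 11, though its aPD1 partner was at 2172. Low values also stood outside pools 8 to 11, at 0 and 779 CPM in the CC007 isotype and aPD1 tumors of pool 7. The CC002 isotype tumor of pool 5 was at 943 CPM. The difference between strains in cluster 20 was not tested, nor was the part of the libraries or of the Ptprc cells in it.

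Cluster 25 held 295 collagen UMIs, of which 176 (59.7%) were Col8a1, a short chain that forms hexagonal networks, at 202 CPM. Col6a3 (41.2 CPM), Col4a5 (37.8) and Col4a6 (32.1) followed, then Col14a1 with 5 UMIs. Col3a1 and Col1a1 had 0 UMIs. For Col3a1 this was 0 of 249 cells, which by the exact 95% binomial interval allows up to 1.47% of cells with a UMI at this depth (1532 UMIs per cell at the median). It does not limit the share of cells that express the gene. The 49 cells with keratin or Epcam UMIs, from 21 tumors, carried this set, with a collagen UMI in 85.7% of them, Col8a1 at 378 CPM, Col4a5 at 66.6 and Col4a6 at 55.9. The 163 cells with B cell markers stood at 24.4 CPM of collagen and 4.91% of cells. Col4a5 and Col4a6, neighbours on the X chromosome, differed in where else they were seen, with 276 UMIs of Col4a5 and 4 of Col4a6 in cluster 20. Of the 4 tumors with at least 10 cells of cluster 25, 1 had a Col8a1 UMI, so its level over tumors rests on few cells each.

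In the immune clusters the fibril-associated family took 55.5% of the 14524 collagen UMIs, and Col14a1 alone took 49.2% (7147 UMIs). Col15a1 (1256 UMIs) and Col3a1 (662) came next. Col14a1, a chain that coats fibrils in dense connective tissue, stood at 51.2 CPM in cluster 26, 50.7 in cluster 19, 49.4 in cluster 17 and 20.8 in cluster 27. All 6 macrophage markers reached 100 CPM in each of these clusters. They did so in clusters 5 and 9 as well, where Col14a1 stood at only 6.76 and 5.30 CPM. In clusters 2 and 4, with 5 of 6 such markers at 100 CPM, Col14a1 stood at 4.29 and 1.96 CPM. In cluster 3, where 5 of 5 T and NK cell markers reached 100 CPM, it stood at 0.107 CPM. Of the 17007 cells of cluster 26, 19.1% had a Col14a1 UMI (exact 95% binomial interval 18.5 to 19.7%; 5.54% after thinning; 4383 UMIs per cell at the median), against 1 of 2809 cells, 0.0356%, in cluster 3 (0% thinned; 2823 UMIs per cell). The interval covers counting error over pooled cells only, not the spread between tumors, which ran from 0 to 100.4 CPM. Col3a1, the leading collagen of cluster 22, was seen in 0.800% of the cells of cluster 26. Col14a1 UMIs outnumbered those of Col3a1 by 4556 to 151 in cluster 26, whereas in cluster 22 it was 427 to 11885.

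Other collagen genes of the immune clusters, chosen after their values were seen, were low and each stood out in a few of them. Col27a1, a fibrillar chain of cartilage, was at 24.1 CPM in cluster 11, where Ccr7 (a homing receptor of mature dendritic cells) was at 2506 CPM, and had 67 UMIs in cluster 15, in 7 of 8 tumors. Per tumor it ran from 0 over 21.1 to 64.0 CPM in cluster 11 (n = 44), with a UMI in 40 of them. Col17a1, a transmembrane collagen of epithelia, reached 11.9 CPM in cluster 18 on 19 UMIs, and Col18a1 11.9 in cluster 15 on 40. Col23a1, another transmembrane collagen, reached 5.73 in cluster 6 on 56. Col15a1 was at 5.49 CPM in cluster 26 and was seen in 46 of 47 tumors there.

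The next comparison asks whether aPD1 changed collagen genes within 48 h. Of the collagen genes, 14 of 44 in cluster 22, 11 in cluster 20 and 19 in all cells passed the filter on low counts, and 0 were called in each by edgeR's quasi-likelihood test (adjusted p under 0.05 over all genes tested, host strain in the model). Over all genes 0.0% were called in each, 0 of 1340, 0 of 4369 and 0 of 12649. At an unadjusted p under 0.05 there were 2 collagen genes in cluster 22 (3.66% of all genes), 0 in cluster 20 (0.778%) and 0 in all cells (2.17%). Those of cluster 22 were the chains of type I collagen. Per tumor Col1a1 in cluster 22 was 1125, 3257 and 10226 CPM under isotype (n = 11) and 993, 1991 and 5772 under aPD1 (n = 13). Its log2 difference, aPD1 against isotype, was -0.77 ± 0.35 (SE), with an adjusted p of 1.0, and the groups overlapped over most of their range. That of Col1a2 was -0.81 ± 0.38 with the same adjusted p. In the alternatives other than a left-out pool or strain, Col1a1 ran from -1.38 to -0.34 and Col1a2 from -1.38 to -0.13. Neither was called in any of them. Pooled over tumors, cells with endothelial markers were 30.2% of cluster 22 under isotype and 22.8% under aPD1. Cells with mural markers were 43.6% and 55.6%, and cells with neither set 21.8% and 19.7%. As medians over tumors the endothelial share ran the other way, at 17.6% and 27.3%. The mural medians were 40.0% and 58.3%, and those of neither set 16.7% under both. The part of these cells in the type I values was not tested. Col4a1 differed by 0.12 ± 0.20. In cluster 20 the differences of the 11 genes lay between -0.31 and 0.13. Of the 54 collagen processing and receptor genes, 16, 23 and 41 were tested in cluster 22, cluster 20 and all cells, and 0 were called in each. Isotype and aPD1 tumors never shared a hashtag (the antibody tag naming a tumor in a pooled library), so tag and antibody cannot be told apart.

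Responder and non-responder crosses were compared with the antibody in the model. Tumors, not strains, are the units, and each class holds 3 strains. In cluster 22 (10 tumors each) 0 of 14 collagen genes were called (0.222% of 1349 genes, 0.148% higher and 0.0741% lower in responder crosses), and 1 had an unadjusted p under 0.05 (6.0% of all genes). That was Col5a2, at 224, 497 and 1018 CPM in responder and 483, 669 and 1271 in non-responder crosses, a log2 difference of -0.77 ± 0.28 with an adjusted p of 0.751. Cells with endothelial markers, which are low in Col5a2, were 34.9% of cluster 22 in responder and 21.7% in non-responder crosses, and cells with neither set, which are high in it, 17.8% and 25.1%. Their part in the result was not tested. Col1a1 differed by -0.10 ± 0.40 and Col4a1 by -0.08 ± 0.23. In cluster 20 (18 and 17 tumors) 0 of 11 were called (0.0175% of 5713 genes) and 0 had an unadjusted p under 0.05 (1.05%). Col3a1 there had a log2 difference of -0.27 ± 0.58, a standard error that leaves room for a change in either direction.

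In all cells together (20 responder and 18 non-responder tumors) 1 of 20 collagen genes was called, and higher in responder crosses, against 3.04% of 12770 genes in either direction and 1.82% called higher. It was Col20a1, a fibril-associated chain, at 0.734, 1.39 and 2.98 CPM in responder and 0.383, 0.761 and 1.57 in non-responder crosses. The log2 difference was 0.79 ± 0.17 with an adjusted p of 0.00545. This rests on 2 to 22 UMIs per tumor in both classes, and the classes overlapped. By strain the medians of Col20a1 were 1.94 CPM in CC075, 1.27 in CC001 and 1.13 in CC002 crosses, then 0.836 in CC080, 0.802 in CC036 and 0.688 in CC079 crosses. B6 (0.924) and CC007 crosses (0.917), which carry no class, lay between. Of its 449 UMIs, 428 were in the immune clusters, at 1.12 CPM, and no cluster stood above 3.38. The call was lost without CC079 (adjusted p = 0.0699), and without CC001, CC075, pool 4, pool 11 or pool 12 and in pools 1 to 6 alone the gene failed the filter on low counts. It was lost too within pools 7 to 12 alone (0.0644) and with counts summed per strain (1.0). Col5a2 (-0.84 ± 0.33, adjusted p = 0.201) and Col12a1 (-1.11 ± 0.37, adjusted p = 0.105), the other collagen genes with an unadjusted p under 0.05 (13.9% of all genes), were not called. Each was called by edgeR in 1 of 16 fits that left out a pool or strain, with an adjusted p of 0.0436 and 0.0325.

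Of the 54 processing and receptor genes, 41 were tested in all cells and 3 were called, all lower in responder crosses (1.22% of all genes were called lower). Fn1 (fibronectin, on which collagen fibrils assemble) was at 273, 529 and 1014 CPM in responder and 394, 1036 and 1945 in non-responder crosses, a log2 difference of -0.92 with an adjusted p of 0.000645. Postn (periostin, a fibril partner) fell by 1.31 on the log2 scale (0, 2.87 and 9.59 CPM in responder, 0.607, 9.89 and 17.5 in non-responder crosses; adjusted p = 0.0354) and lost its call in 11 of 16 fits that left out a pool or strain. Itgb1, the shared chain of the collagen-binding integrins, fell by 0.18 (adjusted p = 0.0027), a call lost without CC079 (0.0642). With counts summed per strain Fn1, Postn and Itgb1 had adjusted p of 0.545, 1.0 and 1.0, within pools 1 to 6 alone 0.0671, 0.288 and 0.102, and within pools 7 to 12 alone 0.0732, 0.268 and 0.124, so that no call was left in these 3 alternatives.

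The interaction of class and antibody in cluster 22 asks whether aPD1 tumors differed from isotype tumors by another amount in responder than in non-responder crosses. Host strain was not in this model. The responder strains were unevenly spread over the antibodies, so strain and antibody are partly mixed in the values below. Of 16 collagen genes tested 0 were called, as over all 2161 genes (0.0%), while 7 of the 16 had an unadjusted p under 0.05 (5.46% of all genes), all positive. Col1a2 in responder crosses was 757, 1512, 1544 and 1837 CPM under isotype and 681, 2284 and 3353 (lowest, median, highest) under aPD1 (n = 6). In non-responder crosses it was 1944, 2022, 4483, 4709 and 5948 CPM under isotype and 652, 800, 941, 1077 and 2825 under aPD1. In the non-responder crosses 4 of 5 aPD1 tumors thus lay below all isotype tumors, while in the responder crosses the antibodies overlapped. Its interaction was 2.31 ± 0.66 on the log2 scale, with an unadjusted p of 0.00216 by edgeR's quasi-likelihood test and an adjusted p of 0.608. Col1a1 followed the same order, with medians of 2796 and 3783 CPM in responder and 5331 and 1905 in non-responder crosses under isotype and aPD1, and an interaction of 1.87 ± 0.66 (adjusted p = 0.805). Both chains were called where no filter on low counts was set, with adjusted p of 6.81e-05 for Col1a2 and 0.00196 for Col1a1, in a fit that called 0.239% of 16732 genes, so the call depends on that filter.

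For Col6a3 the medians lay farther apart in the responder crosses. In responder crosses it was 407, 431, 467 and 611 CPM under isotype and 487, 1061 and 1351 under aPD1. In non-responder crosses it was 764, 791, 1056, 1121 and 1530 under isotype and 524, 854, 903, 1274 and 1289 under aPD1. Its interaction was 1.31 ± 0.40 (adjusted p = 0.713). Col5a2, Col6a1, Col6a2 and Col12a1 made up the 7, between 1.14 and 1.61. That of Col12a1 ran from 0.61 to 2.43 where a pool or strain was left out, and down to 0.11 in other alternatives. The basement membrane chains Col4a1 (-0.39 ± 0.45), Col4a2 (-0.23 ± 0.45), Col15a1 (-0.97 ± 0.54) and Col18a1 (-0.64 ± 0.41) were the 4 with a negative sign. The median of the 16 was 1.14 against 0.03 over all genes tested, and that of the 30 processing and receptor genes tested was 0.55, with 0 called. The 16, and the 7 among them, were read in the same cells of the same tumors. They are therefore not independent, their agreement adds no replicate, and the set was not tested. The make-up of cluster 22 also differed between these groups of tumors, though not always in step with these values. Cells with endothelial markers were 46.0%, 28.3%, 25.7% and 17.6%, cells with mural markers 31.7%, 51.9%, 46.7% and 52.0%, and cells with neither set 14.3%, 19.8%, 24.8% and 25.5%, in responder isotype, responder aPD1, non-responder isotype and non-responder aPD1 tumors, on 63 to 106 cells a group. Their part in the result was not tested.

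**Figure D4:**
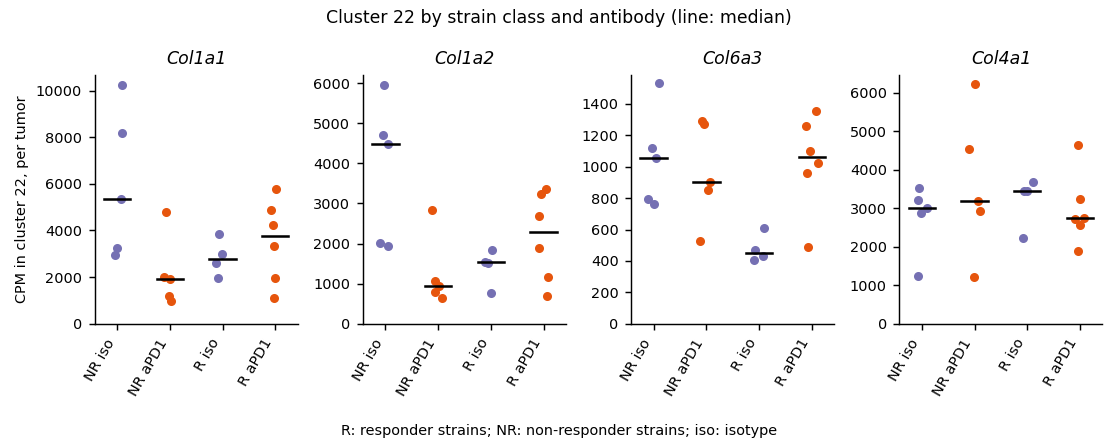
CPM in cluster 22 of Col1a1, Col1a2, Col6a3 and Col4a1 (y axis, 1 panel a gene, axes from 0) in each tumor of non-responder (NR) and responder (R) crosses under isotype (iso) or aPD1, with the median as a line. The tumors number 5, 5, 4 and 6 from left to right, and Col1a2 is lower under aPD1 in 4 of 5 NR tumors than in all NR isotype tumors.

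Host strains were compared with an F test over all strains. In cluster 22 (23 tumors) 0 of 17 collagen genes were called (0.608% of 3123 genes), and Col5a2, Col6a2 and Col14a1 had an unadjusted p under 0.05 (10.1% of all genes). Col5a2 came nearest, with an adjusted p of 0.187. Its tumors ranged from 224 to 487 CPM in CC001 crosses (n = 3) and from 496 to 1271 in CC079 crosses (n = 4), which did not overlap. This pair of crosses was not tested by itself, and CC075 crosses, at 295, 330 and 509 CPM, overlapped both. Cells with endothelial markers were 47.2% of cluster 22 in CC001 and 8.33% in CC079 crosses, and cells with neither set 22.2% and 41.7%, while Col5a2 stood at 61.4 CPM in the former cells and 1460 in the latter. Their part in the result was not tested. The single tumor of CC007 crosses was left out of this fit. Without the filter on low counts Col5a2 (adjusted p = 0.0442) and Col14a1 (1.54e-09) were called, in a fit that called 2.89% of 17022 genes. Counting this fit, Col5a2 was called in 2 of 10 alternatives other than a left-out pool or strain.

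Cluster 26 was added to the comparisons after Col14a1 had been seen there. In its tumors with at least 50 such cells, aPD1 and isotype did not give a call for Col14a1 (-0.12; 0.0% of 9353 genes called, 3.49% at an unadjusted p under 0.05), nor did class (-0.12 ± 0.25, adjusted p = 0.856; 7.88% of 9557 genes called). Among host strains Col14a1 was called with an adjusted p of 1.83e-07 (45 tumors), in a comparison that called 33.7% of 10623 genes. CC075 crosses were lowest, at 4.28, 11.6 and 27.1 CPM (n = 6), and B6 next, at 10.2, 22.7 and 29.9 (n = 6). These neighbours overlapped. No tumor of CC079 (31.4, 44.3 and 55.1; n = 6), CC001 (32.5, 52.6 and 84.5; n = 8), CC080 (33.6, 60.6 and 92.6; n = 6), CC036 (30.7, 44.3, 49.9, 74.6 and 75.6) or CC002 crosses (42.3, 52.4, 70.6, 71.4 and 100.4) lay as low as the highest of CC075 or B6. The tumors of these crosses overlapped each other, and CC007 crosses gave 23.8, 65.2 and 76.0 CPM. All this holds for tumors with at least 50 such cells. Of those left out, the CC002 isotype tumor of pool 12 had 0 Col14a1 UMIs among 116445 on 25 cells. The CC036 isotype tumor of pool 8 had 11 among 161695 on 37 cells, and the CC007 aPD1 tumor of pool 6 had 0 among 4291 on 4. Ptprc in the same cells was at 370, 628 and 690 CPM in CC075 crosses and 386, 451 and 558 in B6, against medians of 354 to 461 in the other crosses. The 4 CC075 tumors lowest in Col14a1 had Ptprc at 606 to 690 CPM, and the other 2, at 17.3 and 27.1 CPM of Col14a1, had Ptprc at 407 and 370. Its part in the result was not tested. Since CC075 is classed with the responders and stood lowest while CC001 and CC002 did not, the order did not follow class.

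The call for Col14a1 stayed in all 30 alternatives run, with an adjusted p of 0.000121 with the pool as a block, 0.0142 in pools 1 to 6 alone and 0.000606 in pools 7 to 12 alone. The fits by pools did not compare the same strains. Pools 1 to 6 held no tumor of CC075 or CC036 crosses, and pools 7 to 12 none of CC079 crosses. Of B6, pools 1 to 6 held only the tumors of pool 6, at 22.3 CPM under isotype and 29.9 under aPD1. The low values of CC075 crosses were therefore not tested in pools 1 to 6. The other macrophage-marker clusters were not tested, and the values below are of clusters 17, 27 and 19 alone. In cluster 17 the medians were 11.2 CPM in B6 and 26.3 in CC075 against 32.4 to 79.6 in the other crosses, and in cluster 27 they were 4.37 and 5.44 against 14.7 to 42.9. In cluster 19 the order was another, with CC007 crosses lowest (9.37 CPM on 2 UMIs), then CC075 (15.9), CC080 (21.2) and B6 (22.1). Reads of all crosses were aligned to the C57BL/6J genome, and its part in values between strains was not tested. Col15a1, the other collagen gene tested in cluster 26, was not called among strains (adjusted p = 0.124).

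**Figure D5:**
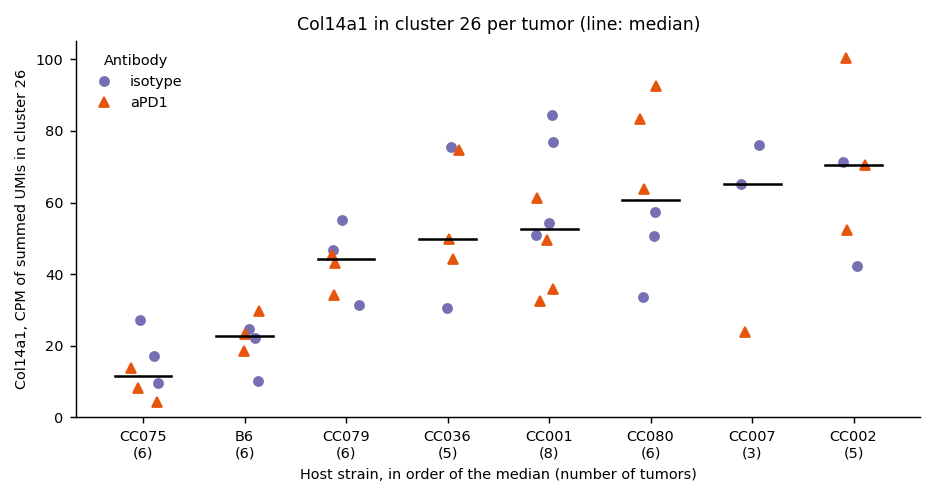
Col14a1 in cluster 26, in CPM per tumor (y axis), by host strain in order of the median (x axis, number of tumors in brackets), with circles for isotype, triangles for aPD1 and the median as a line. Only tumors with at least 50 cells of cluster 26 are drawn. Of these, the tumors of CC075 crosses and B6 lie at or below 29.9 CPM, and the only tumor of another cross below that is 1 of CC007 at 23.8 CPM.

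Of 15 processing and receptor genes tested in cluster 26 by class, 4 were called (7.88% of all genes), 2 higher (4.98% of all genes) and 2 lower (2.9%) in responder crosses, and the named ones are the 3 of largest change. Mmp13, a collagenase that cuts fibrillar collagen, was at 0.479, 9.07 and 63.5 CPM in responder and 0, 3.31 and 15.5 in non-responder crosses, a log2 difference of 2.58 with an adjusted p of 0.000769. CC001 crosses carried this, at 16.0, 42.8 and 63.5 CPM (n = 8), while no tumor of another strain was above 15.6, and without CC001, pool 1 or pool 12 and in pools 7 to 12 alone the gene failed the filter on low counts. Fn1 in cluster 26 was at 99.8, 270 and 734 CPM in responder and 183, 648 and 1587 in non-responder crosses, lower by 1.23 on the log2 scale in the fit (-1.23, adjusted p = 0.000312). Lair1, an inhibitory receptor for collagen on blood cells, was at 219, 312 and 382 CPM against 195, 260 and 383, a difference of 0.27 (adjusted p = 0.0302) whose call was lost in 7 of 16 fits that left out a pool or strain, with an adjusted p of up to 0.319 without CC001, and in 5 of 11 other alternatives. With counts summed per strain the adjusted p of Mmp13, Fn1 and Lair1 were 0.618, 0.432 and 0.812. In the study, macrophages of clusters 2, 5 and 26 scoring high for an interferon-gamma response were more frequent in responder tumors. The part of such cells in these values was not tested.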

How the data were processed

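Single-cell 5' RNA sequencing was run on 12 pooled libraries of 4 tumors each. Per the study's methods and processing notes, the authors aligned reads with Cell Ranger to GRCm38 (mm10), assigned hashtags, filtered cells by mitochondrial and ribosomal share and clustered them with Seurat 5.0.1. The deposited values are raw UMI counts per gene and cell. No doublet caller was run here, and the sequence of a barcode recurred in another library for 10176 cells, which were told apart by library. The list of hashtag barcodes was set aside, since cells came already assigned to tumors.

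Counts were summed per tumor and cluster and are given as CPM of the sum's UMIs. A tumor entered a fit with at least 10 cells of cluster 20 or 22, or 50 cells of cluster 26 or in all. Fits used edgeR 4.0.16 in R 4.3.3 (TMM, quasi-likelihood test, filterByExpr, Benjamini-Hochberg adjustment over all genes tested, call at an adjusted p under 0.05), with DESeq2 1.42.0 as an alternative. The SE beside a log2 difference is the size of that difference divided by the square root of the test's F value. Other scalings, filters, cell minimums, pools as a term or alone and left-out pools, strains or shared animals were also tried. Members, lists and tests were chosen with earlier results of these data known. Tumors of 1 strain in 1 pool shared a library, so the labels pair them: 18 of 24 such pairs correlated over 0.1 in their deviations (median 0.21). Named genes were the 12 collagen genes with most UMIs in cluster 22, the 5 in clusters 20 and 25 and the 3 in the immune clusters, every called collagen gene and the 3 called list genes of largest change; genes named beyond these were chosen after their values were seen. The fits of aPD1 against isotype in cluster 22 and of class in cluster 26 were also run on simulated counts. Those counts were drawn for each tumor apart, without the correlation of pairs, and the other fits were not tried in this way. 1 animal identifier stands on 2 tumors.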

Additional observations from a re-analysis of the deposited data

Results flagged for a closer look

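A tumor stood far from the rest of its group in 8 of 69 groups looked at, where a rule at the 95% level is taken to give about 1 in 20 by chance. The groups are not independent, and Col1a1 and Col1a2 point to the same tumor. In cluster 22 the non-responder aPD1 tumor CC079 of pool 2 was at 4806 CPM of Col1a1 and 2825 of Col1a2, with the nearest of the other 4 at 1990 and 1077, on 33 cells. In cluster 20 the summed collagen level of the CC036 aPD1 tumor of pool 10 was 2251 CPM, with the nearest CC036 tumor at 834. Col20a1 was at 0 CPM in the CC007 aPD1 tumor of pool 6, which has 53 cells, and at 1.57 CPM on 11 UMIs in the CC080 isotype tumor of pool 4 (nearest 0.937). Mmp13 in cluster 26 was at 15.5 CPM on 14 UMIs in the CC036 aPD1 tumor of pool 9, at 11.2 on 29 UMIs in the CC079 aPD1 tumor of pool 1 and at 12.0 on 5 UMIs in the CC080 isotype tumor of pool 4, with the nearest tumors of those crosses at 5.58, 3.30 and 4.24.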

How the results depend on the processing

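Of 314 alternatives run for counts of called collagen genes, 297 left the count within 1.5 times, and of 615 for single genes 570 kept direction and side of the threshold and 0 changed sign. Most of the 314 belong to comparisons that called 0 collagen genes, where a count that stays at 0 says little. The single genes were chosen by an unadjusted p under 0.05 in the main fit, and the tests over all strains have no sign to change. The count for class in all cells was kept in 8 of 16 fits that left out a pool or strain and in 8 of 11 others. A kept count need not be the same gene, since without pool 11 the count stayed at 1 while Col20a1 was not tested. For responder against non-responder crosses in all cells the count of 1 became 0 to 2 when a pool or strain was left out, and 0 with counts summed per strain, in pools 1 to 6 alone and in pools 7 to 12 alone. In cluster 22, with no filter on low counts, 3 of 38 collagen genes were called for the interaction (Col1a1 and Col1a2 among them; 0.239% of all genes) and 6 of 40 among strains (2.89%). The strain comparison there gave 1 of 17 with DESeq2 (2.15% of all genes) and 2 of 17 with a minimum of 20 cells (1.65%). In cluster 26 the strain comparison gave 6 of 41 with no filter (18.9%) and 2 of 2 without the tumors sharing an animal identifier (33.2%). The causes were not tested. The summed collagen level of cluster 25 was 17.7 CPM as the median over its 4 tumors. With a replicate block the pairing changed no call, and the collagen count for class in all cells stayed at 1, while the block could not be fitted for strains in cluster 22. Of the 48 tumors, 24 had the 10 cells of cluster 22 that its fits asked for.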
